A study of Mus musculus with 2 samples.

Results

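The type I interferon stimulated genes are a set of transcripts switched on when a cell senses interferon alpha or beta. Here they are a fixed list of 38 genes, given by name. It was drawn up with earlier results of these data known, so it may not be independent of them. Of the 38 genes, 37 have a row among the 32285 genes of the count tables. Mx1, the remaining one, has no row in the gene table used here and is not analysed. The genes were read in splenic regulatory T cells (Tregs), a CD4 lineage that restrains immune responses and depends on the transcription factor Foxp3, by droplet single-cell RNA sequencing of transcript 3′ ends. The group named CD25WT had the genotype CD25WT/WT-tdTomato+/+-Foxp3eGFPCretERT2+/+ and the group named CD25KO the genotype CD25FL/FL-tdTomato+/+-Foxp3eGFPCretERT2+/+. Both genotypes carry a GFP-marked, tamoxifen-inducible Cre recombinase made in Foxp3-expressing cells and a tdTomato reporter, and the floxed CD25 alleles of the second are the difference between them. Both groups received intraperitoneal tamoxifen (2 mg/kg over 5 days). Spleens followed 10 days after induction, 2 of them pooled into each library. No age of the mice is stated in the labels. Cells were sorted as viable, CD4, GFP and tdTomato positive, and the CD25KO cells were gated on low CD25 as well. With 1 library per group there are no replicates, no difference between the libraries could be tested, and every interval given here is a 95% exact interval for counting error only.

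Type I interferons bind the receptor Ifnar1 and Ifnar2, whose kinases Jak1 and Tyk2 phosphorylate STAT proteins, Stat2 among them. These join Irf9 into a complex that binds the interferon-stimulated response element (ISRE) in the promoters of its target genes. The products block viral translation, degrade RNA, modify proteins with Isg15 or feed back on the receptor. In T cells a low tonic level of many of these transcripts is known without infection.

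The promoters were searched for the binding element, which played no part in choosing genes or cells here. An ISRE match was taken as 2 copies of the letters GAAA with any 2 bases between them, searched on both strands in windows from 250 bases before to 50 bases after each annotated start (RefSeq, GRCm38.p6). Of the 38 listed genes, 31 had a window, and 17 of these (54.8%) held a match in at least 1 of their windows, against 3.99% of the 27025 genes and 3.44% of the 32851 windows in the whole table. The letters TTCNNNGAA of the interferon gamma element (GAS), which can overlap the other, were found for 3 of the 31 genes (9.68%), against 9.55% of all genes. The 250 bases before the start are printed 5′ to 3′ along the gene's strand for 4 of the genes used below to find cells that carry several of the transcripts, for Oas3, 1 of 2 genes past 1.5-fold between the libraries, and for Slfn2, the gene that differed least between those cells and the rest. Capitals mark ISRE matches, on either strand.
Ifit1, chr19:34640639-34640888, plus strand: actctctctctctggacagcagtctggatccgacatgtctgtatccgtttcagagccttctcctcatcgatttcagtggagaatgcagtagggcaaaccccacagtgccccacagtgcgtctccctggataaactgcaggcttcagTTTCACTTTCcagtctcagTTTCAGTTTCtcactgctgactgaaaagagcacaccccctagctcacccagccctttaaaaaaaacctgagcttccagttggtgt
Ifit3, chr19:34583279-34583528, plus strand: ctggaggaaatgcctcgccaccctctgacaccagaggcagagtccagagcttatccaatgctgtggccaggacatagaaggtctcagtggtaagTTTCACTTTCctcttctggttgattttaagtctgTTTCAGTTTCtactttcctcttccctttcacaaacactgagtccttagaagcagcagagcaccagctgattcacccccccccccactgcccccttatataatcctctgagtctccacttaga
Rsad2, chr12:26456453-26456702, minus strand: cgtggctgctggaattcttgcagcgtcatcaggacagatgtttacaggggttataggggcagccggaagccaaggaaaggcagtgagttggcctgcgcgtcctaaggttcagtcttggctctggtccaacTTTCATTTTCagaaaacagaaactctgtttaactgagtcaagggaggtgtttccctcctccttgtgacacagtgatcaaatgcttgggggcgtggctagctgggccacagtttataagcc
Isg15, chr4:156200819-156201068, minus strand: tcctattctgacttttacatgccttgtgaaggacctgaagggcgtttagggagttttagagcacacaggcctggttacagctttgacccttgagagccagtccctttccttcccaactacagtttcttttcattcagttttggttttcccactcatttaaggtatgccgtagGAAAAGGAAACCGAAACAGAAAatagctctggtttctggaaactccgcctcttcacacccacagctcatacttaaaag
Oas3, chr5:120777660-120777909, minus strand: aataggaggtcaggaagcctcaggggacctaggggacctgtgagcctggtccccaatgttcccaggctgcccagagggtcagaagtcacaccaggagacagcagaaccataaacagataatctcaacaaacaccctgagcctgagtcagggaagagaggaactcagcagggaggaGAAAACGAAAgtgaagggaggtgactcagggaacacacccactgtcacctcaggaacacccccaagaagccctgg
Slfn2, chr11:83064862-83065111, plus strand: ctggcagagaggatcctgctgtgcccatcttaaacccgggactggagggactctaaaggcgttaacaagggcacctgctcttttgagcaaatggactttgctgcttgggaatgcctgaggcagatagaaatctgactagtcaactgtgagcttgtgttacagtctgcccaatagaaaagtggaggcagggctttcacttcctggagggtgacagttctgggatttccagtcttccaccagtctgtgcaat

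Ifit1 held 2 separate matches, beginning 104 and 85 bases before the start, and Ifit3 held 2, at 156 and 122 bases. Rsad2 held 1 at 120 bases and Oas3 1 at 75 bases. In Isg15, 3 matches beginning at 78, 72 and 66 bases overlapped in a single run. The Slfn2 window held no match to this pattern, which says nothing of sites elsewhere. No match was found either for Cmpk2, Oasl1, Oasl2, Ifi44 and Irf7, which were much higher in the cells found below (log2 ratios of 2.43 to 4.09). The same held for Irf9, which differed little (0.75 and 0.64). Whether a match goes with a higher level in those cells was not tested. A match is a description of the letters and was not tested as a binding site. The genes lie on 15 chromosomes, with several in family clusters: Ifit1, Ifit3 and Ifit3b on chromosome 19, the p200 genes on chromosome 1, the Schlafen genes on chromosome 11, and Parp9, Parp14 and Dtx3l on chromosome 16. Parts of some transcripts recur in other genes, so reads can be shared. Of the 60-base words in the last 500 bases of its transcripts, Ifi209 had 44.8% in another gene, Herc6 23.7%, Ifi206 21%, Slfn8 20.3%, Trim30a 19.4%, Trim30d 16.2%, Ifi213 15.9% and Ifit3 12.9%. The values of these 8 genes are therefore less certain.

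The CD25WT library held 6620 barcodes and the CD25KO library 7530, of which 6110 and 6952 passed a filter of 500 or more detected genes and no more than 10% mitochondrial unique molecular identifiers (UMIs, 1 per captured transcript molecule). The kept cells carried 35436738 and 35726778 UMIs, of which 170960 and 214155 came from the 37 genes. The median cell was deeper in CD25WT, at 5229 against 4150 UMIs. Ribosomal protein genes took 39.3% of CD25WT and 31.1% of CD25KO UMIs, which bears on any value scaled to the total. Of the kept barcodes, 26 occur in both libraries. Il2ra, which encodes CD25, was at 125 counts per 1000000 UMIs (CPM) in CD25WT and at 32.4 CPM in CD25KO. Every log2 ratio between the libraries is CD25KO over CD25WT, and that of Il2ra was -1.95 (-2.04 to -1.85). The sort acts on its product, and 3′ tags outside a deleted part check nothing, so this value does not test the deletion. Foxp3 was at 34.1 and 21.6 CPM and had a UMI in 15.9% and 9.93% of cells.

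With the total of UMIs as scale and all kept cells pooled, the set was close in the 2 libraries once Ifi27l2a was set aside. The summed level of the 37 genes was 4824 CPM (4802 to 4847) in CD25WT and 5994 CPM (5969 to 6020) in CD25KO. The log2 ratio was 0.31 (0.30 to 0.32). Ifi27l2a, a small hydrophobic protein of the interferon alpha-inducible family, gave 36.3% of the set's UMIs in CD25WT and 47.1% in CD25KO. The other 36 genes together were at 3075 and 3171 CPM, a log2 ratio of 0.04 (0.03 to 0.06). This sum was not computed under another scaling, and it differed between Treg states, as given below. Of the 37 genes, 32 averaged 10 CPM or more over the libraries. Of these, 2 were higher in CD25KO by at least 1.5-fold, none was at least 1.5-fold lower, and 30 lay between, where, of the 7129 genes that reach that mean, 10.4% were higher and 1.5% lower by as much. The median log2 ratio of the 32 genes was 0.08, and that of all genes 0.21, so the set sat below the typical gene. Against 0, 20 genes were above and 12 below. Against the median of all genes, 14 were above and 18 below.

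**Figure D1:**
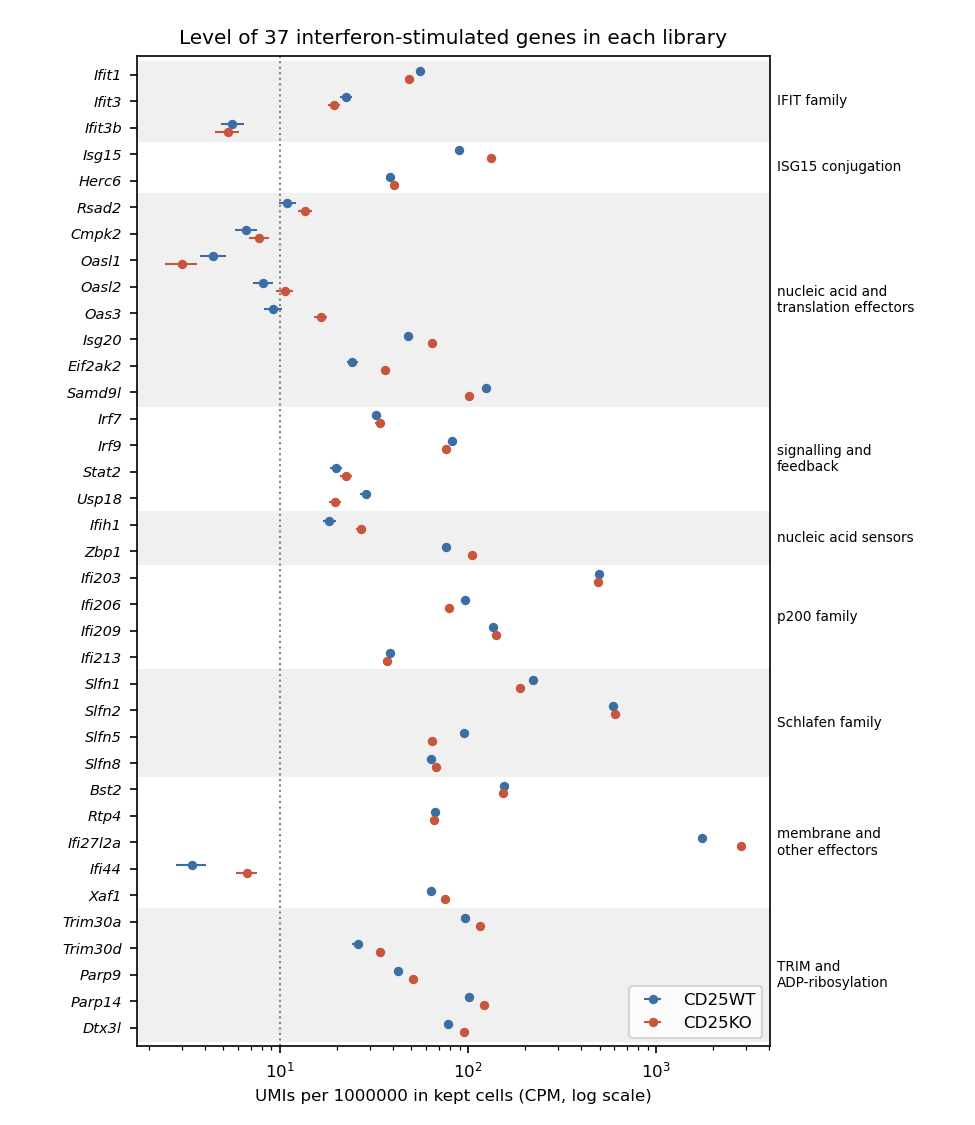
Level of each of the 37 interferon stimulated genes in counts per 1000000 UMIs (log axis) in the CD25WT and CD25KO libraries, grouped by role, with bars for the 95% exact Poisson interval. Ifi27l2a stands at 1749 and 2823 CPM, and for most other genes the points of the 2 libraries lie close together.

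Ifi27l2a went from 1749 CPM in CD25WT to 2823 CPM in CD25KO, with a log2 ratio of 0.69 (0.68 to 0.70). Oas3, which makes the 2-5A messenger that activates RNase L, was at 9.17 and 16.4 CPM from 325 and 587 UMIs, a log2 ratio of 0.84 (0.64 to 1.04). These are the 2 genes past 1.5-fold. Just inside that bound on the higher side were Eif2ak2 at 0.58, Isg15 at 0.56 and Ifih1 at 0.56, and on the lower side Slfn5 at -0.57 and Usp18 at -0.54. The 5 genes under the level minimum were Ifit3b, Cmpk2, Oasl1, Oasl2 and Ifi44, at 3.39 to 8.13 CPM in CD25WT and 2.99 to 10.6 CPM in CD25KO.

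The directions differed by role. The IFIT genes, whose products bind foreign RNA 5′ ends, were slightly lower in CD25KO. Ifit1 was at 55.8 CPM (CD25WT) and 48.7 CPM (CD25KO), and Ifit3 at 22.5 and 19.4 CPM, with log2 ratios of -0.20 (-0.29 to -0.10) and -0.22 (-0.36 to -0.07). Isg15, the ubiquitin-like modifier, went the other way at 89.9 and 133 CPM, a log2 ratio of 0.56 (0.50 to 0.63). Herc6, the ligase that attaches Isg15 to proteins in mice, was at 38.5 and 40.5 CPM, with an interval across 0.

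Effectors that act on RNA and translation were mostly higher in CD25KO. Over the 5 that passed the level minimum the median was 0.43. Eif2ak2, the double-stranded RNA kinase PKR that halts translation, was at 24.3 and 36.2 CPM. The exonuclease Isg20 was at 47.9 and 64.5 CPM and Rsad2, the antiviral enzyme viperin, at 10.9 and 13.6 CPM. Samd9l, a restriction factor for poxviruses, was the exception at 125 and 101 CPM, a log2 ratio of -0.31 (-0.37 to -0.24). The sensors were also higher in CD25KO: the RNA helicase Ifih1 (MDA5) at 18.3 and 27 CPM and the Z-nucleic acid sensor Zbp1 at 76.6 and 105 CPM.

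The transcription factors within the set had ratios near 0. Irf7 was at 32.5 and 33.8 CPM, Irf9 at 82.4 and 76.7 CPM and Stat2 at 19.9 and 22.5 CPM. Usp18, which removes Isg15 and blocks signalling at Ifnar2, stood apart at 28.5 and 19.6 CPM, a log2 ratio of -0.54 (-0.68 to -0.39). Isg15 and the protease that removes it thus had ratios of opposite sign, with intervals that do not overlap.

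The p200 genes, nuclear DNA-binding proteins of the Ifi200 family, were close in the libraries. Ifi203 was at 497 and 489 CPM, Ifi209 at 135 and 140 CPM and Ifi213 at 38.6 and 37.1 CPM. Ifi206 was lower in CD25KO, at 95.9 and 79.3 CPM, a log2 ratio of -0.28 (-0.35 to -0.20). Among the Schlafen genes, several of which act on transfer RNA or T cell quiescence, Slfn2 was at 589 and 602 CPM and Slfn8 at 63.1 and 67.3 CPM. Slfn1 was lower at 222 and 189 CPM, and Slfn5 had the lowest log2 ratio of the set, -0.57 (-0.64 to -0.49), at 94.6 and 63.9 CPM.

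Bst2 (tetherin), which holds budding virus at the membrane, was at 155 and 153 CPM, and Rtp4, a receptor transporter protein, at 66.9 and 65.8 CPM. Both intervals include 0. Xaf1, a partner of the apoptosis inhibitor XIAP, was at 63.4 and 75.5 CPM. All 5 TRIM and ADP-ribosylation genes were higher in CD25KO and near the median of all genes: Trim30a at 96.8 and 115 CPM, Trim30d at 25.9 and 34.1 CPM, Parp9 at 42.6 and 51.2 CPM, Parp14 at 101 and 122 CPM, and Dtx3l, the ubiquitin ligase that pairs with Parp9, at 78.5 and 94.7 CPM. Their log2 ratios ran from 0.25 to 0.40.

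**Figure D2:**
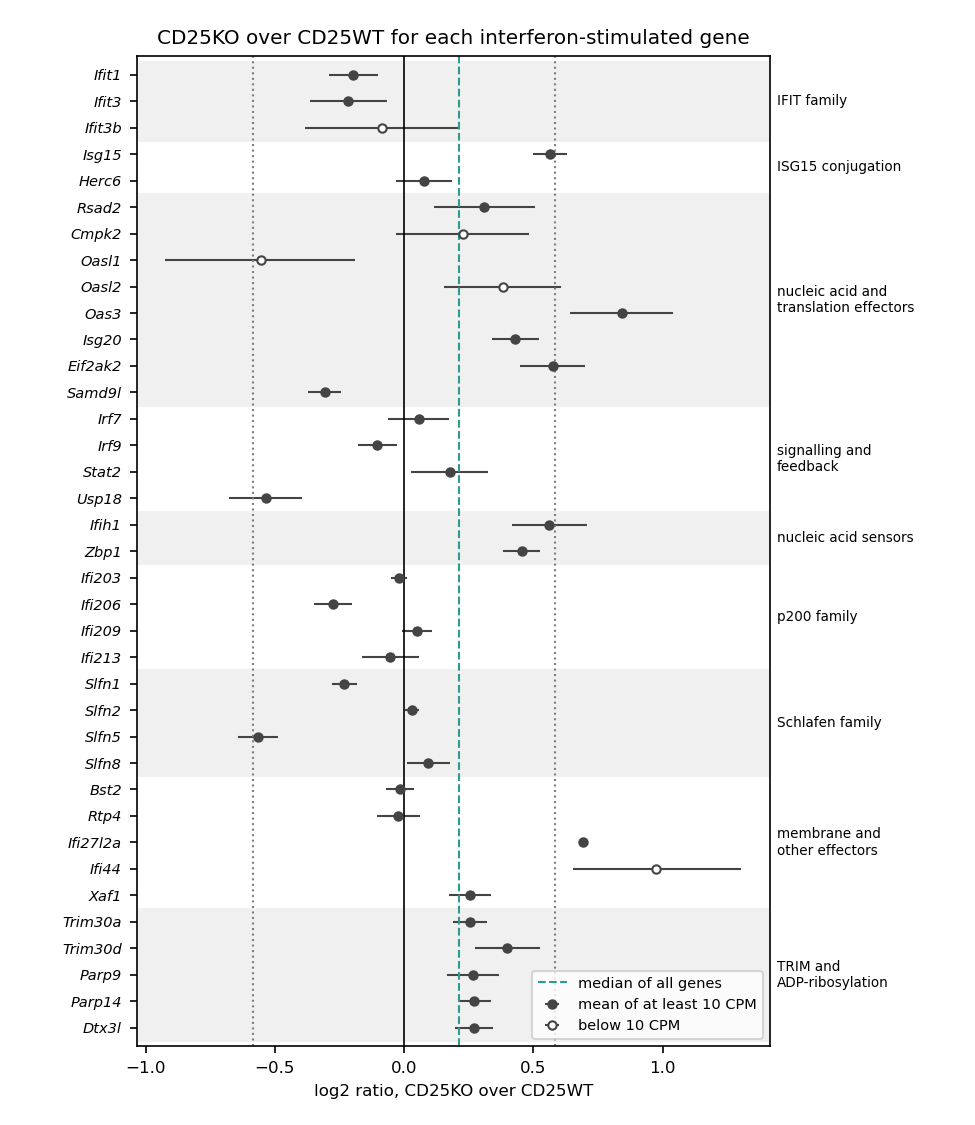
Log2 ratio of CD25KO over CD25WT for the interferon stimulated genes, with bars for the 95% exact conditional interval and lines at the median of all genes and at 1.5-fold. Ifi27l2a (0.69) and Oas3 (0.84) pass 1.5-fold among the 32 genes that average 10 CPM or more, and Slfn5 (-0.57) and Usp18 (-0.54) lie lowest.

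Counting error alone left 17 of the 32 ratios above 0, 8 below and 7 across 0, and 8 above the median of all genes. The median of all genes was 0.21 with the total of UMIs as scale and between -0.01 and 0.02 under 3 other scalings, namely size factors by the median of ratios, TMM factors (a trimmed mean of ratios), and a total that leaves out mitochondrial and ribosomal protein genes. Each of these scalings turned the sign of 6 of the 32 genes, and with TMM factors 14 lay above and 18 below 0. Over all genes past 1.5-fold, 62.2% to 66.4% were higher in CD25KO under them, against 87.4% with the total of UMIs. The log2 ratio of the summed level was then 0.09 to 0.12. Ifi27l2a stayed higher at 0.47 to 0.50, Isg15 at 0.34 to 0.37 and Oas3 at 0.62 to 0.65. Slfn5 stayed lower at -0.79 to -0.76 and Usp18 at -0.76 to -0.73.

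The mix of Treg states differed between the libraries, and the interferon stimulated genes differed between states. Clusters were made without these genes and without other interferon-induced genes, and 8 states had at least 50 cells in both libraries. They are central-like (homing and quiescence genes such as Igfbp4), effector-like (S100a4, Ccl5), follicular regulatory-like (Sostdc1, Tox2), recently stimulated-like (Egr3, Nr4a1) and cycling-like (Top2a, Mki67), and 3 unnamed clusters led by Igkc, Jchain and Naip5 (cluster 1), by Itgb1, Rora and Il18r1 (cluster 3) and by Prg4, Gbp2b and Socs2 (cluster 10). Central-like cells came from 3 clusters with 800, 1134 and 1022 CD25WT cells but 495, 33 and 122 CD25KO cells. Effector-like cells came from 3 clusters with 141, 32 and 67 against 1234, 325 and 18 cells. A further cluster, led by Gsta4 and Il2ra, held 557 CD25WT but 47 CD25KO cells and was not compared.

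The summed level was highest in cluster 3, at 6772 CPM (CD25WT) and 8048 CPM (CD25KO), and in effector-like cells, at 6561 and 7155 CPM. Cluster 10 was at 6316 and 6560 CPM, follicular regulatory-like cells at 5109 and 5361 CPM, and cluster 1 at 5152 and 5075 CPM. Central-like cells, at 4568 and 5048 CPM, cycling-like cells, at 3997 and 5235 CPM, and recently stimulated-like cells, at 3984 and 4913 CPM, were lowest in CD25WT. In CD25KO cycling-like cells lay above cluster 1, and central-like and recently stimulated-like cells were lowest. In CD25WT the counting intervals of neighbours in this order overlapped for cluster 3 and effector-like cells, for effector-like cells and cluster 10, for cluster 1 and follicular regulatory-like cells, and for cycling-like and recently stimulated-like cells, while central-like cells stood apart from both neighbours. The sum was higher in CD25KO in 7 of 8 states, from a log2 ratio of 0.05 (0.01 to 0.10) in cluster 10 to 0.39 (0.34 to 0.44) in cycling-like cells, and in cluster 1 its interval included 0. Both the order and a direction rest on Ifi27l2a. Without it, as chosen after seeing the data, cluster 10 was highest in CD25WT, at 4235 CPM (4141 to 4330) against 3682 CPM (3607 to 3757) in cluster 3 and 3441 CPM (3340 to 3544) in effector-like cells. In CD25KO cluster 10 was at 3950 CPM (3816 to 4087) and cluster 3 at 3931 CPM (3877 to 3986), with intervals that overlap. Cycling-like cells were then lowest in both, at 1620 and 1862 CPM. The sum of the other 36 genes was lower in CD25KO in cluster 10, at a log2 ratio of -0.10 (-0.16 to -0.04), and its interval was above 0 in 6 of 8 states, with cluster 1 at 0.02 (-0.02 to 0.06).

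**Figure D3:**
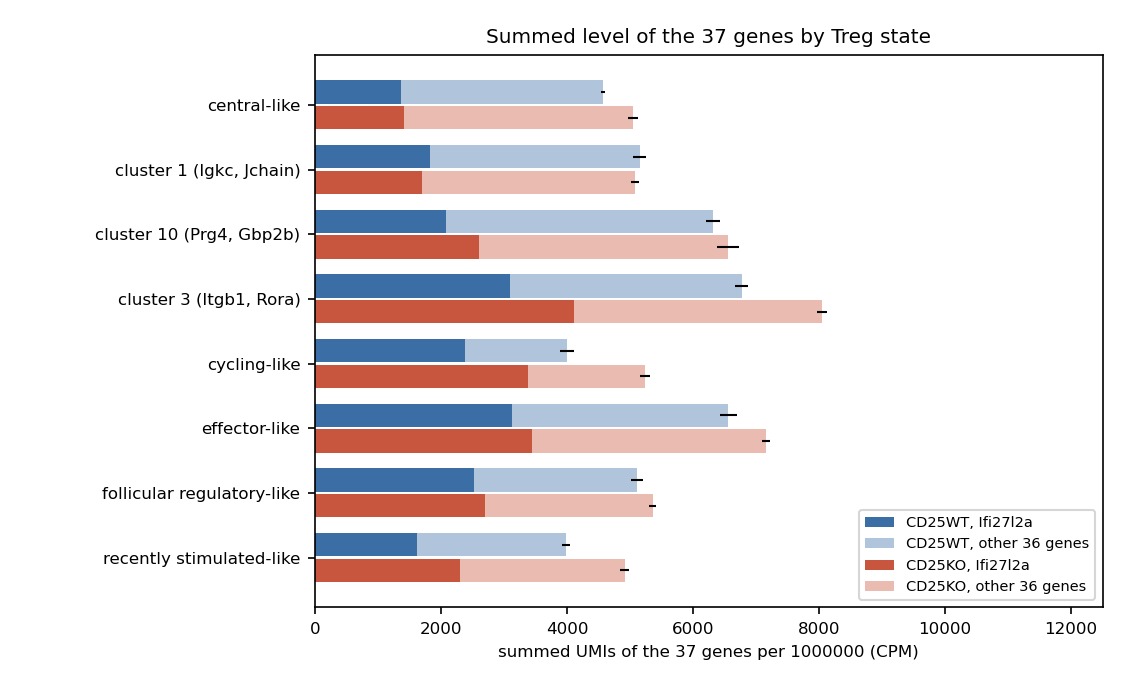
Summed level of the 37 interferon stimulated genes in counts per 1000000 UMIs in each Treg state of the CD25WT and CD25KO libraries, with bars for the 95% exact Poisson interval. With Ifi27l2a in the sum, cluster 3 (6772 and 8048 CPM) and effector-like cells (6561 and 7155 CPM) are highest, and cycling-like and recently stimulated-like cells of CD25WT, at 3997 and 3984 CPM, lowest.

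Within states the set sat above the typical gene in 7 of 8 states, although it sat below it in the pooled libraries. Its median log2 ratio against that of all genes was 0.20 and 0.08 in central-like cells, 0.27 and 0.06 in effector-like cells, 0.14 and -0.01 in follicular regulatory-like cells, and 0.16 and 0.09 in recently stimulated-like cells. It was 0.21 and 0.04 in cycling-like cells, 0.10 and 0.02 in cluster 1, and 0.13 and 0.04 in cluster 3. Cluster 10 was the exception at -0.16 and 0.08. With every state given its CD25WT weight in both libraries, the set's median was 0.16 and that of all genes 0.07, and 27 of 32 genes lay above 0 in place of 20. The members past 1.5-fold within a state, higher and lower, were 4 and 0 of 31 in central-like cells (background 4.81% and 1.98%), 4 and 0 of 32 in effector-like cells (8.73% and 3.84%), 5 and 3 of 30 in cycling-like cells (8.59% and 6.98%) and 1 and 4 of 34 in cluster 10 (10.4% and 6.06%). There were 3 and 0 of 33 in cluster 3 (4.56% and 2.46%), 1 and 0 of 33 in cluster 1 (4.23% and 2.39%), 0 and 0 of 30 in follicular regulatory-like cells (3.08% and 2.62%) and 0 and 1 of 29 in recently stimulated-like cells (7.58% and 2.13%).

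For Ifi27l2a the ratios within states were smaller than the pooled one. Its CD25WT level was 1367 CPM in central-like cells and 3120 CPM in effector-like cells. Its log2 ratio within states ran from -0.10 (-0.16 to -0.05) in cluster 1 to 0.52 (0.47 to 0.56) in recently stimulated-like cells. It was 0.05 in central-like cells, with an interval that reaches 0, and 0.14 in effector-like cells. All 8 are below the pooled 0.69, and with the CD25WT state shares the ratio was 0.19. Oas3 likewise was at 0.30 with those shares, so neither gene passed 1.5-fold, while Isg15 at 0.64 and Zbp1 at 0.65 did.

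Usp18 and Isg15 also depended on the state. In central-like cells Usp18 was at 35.3 and 47.2 CPM, a log2 ratio of 0.42 (0.14 to 0.69), and in effector-like cells at 7.0 and 15.3 CPM from 9 and 112 UMIs. It was lower in CD25KO beyond counting error in cycling-like cells, at -1.34 (-2.29 to -0.37), and in recently stimulated-like cells, at -0.78 (-1.42 to -0.15). With the CD25WT state shares its ratio was 0.25, of opposite sign to the pooled -0.54. Isg15 was higher in CD25KO in 7 of 8 states, most in central-like cells at 75.2 and 150 CPM, a log2 ratio of 0.99 (0.83 to 1.15). Ifit1 was above 0 in 4 states and below in 4, lowest in cycling-like cells at -0.99 (-1.67 to -0.30) and highest in effector-like cells at 0.74 (0.31 to 1.19).

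Some genes kept a direction across states. Of the 28 genes of the set that passed the level minimum in all 8 states, 5 were above 0 in each state and 0 below. They were Zbp1, Ifi213, Xaf1, Parp14 and Dtx3l, with intervals above 0 in 5 states for Zbp1 and 6 for Dtx3l but in none for Ifi213. In cluster 10, Ifi213 at 0.01 and Zbp1 at 0.05 lay below the median of all genes, 0.08. How many of all genes keep a direction in all 8 states was not computed, so nothing is read from these counts. Slfn5 was below 0 in the 7 states where it passed the level minimum, with intervals below 0 in 4. Its CD25WT level ranged from 2.50 CPM in cycling-like cells, from 3 UMIs, to 168 CPM in cluster 10. Samd9l was below 0 in 7 of 8 states. Cluster 10 held the highest CD25WT level of Ifit1 (111 CPM), Ifit3 (55.3 CPM) and Rsad2 (28.2 CPM), and follicular regulatory-like cells the lowest of Ifit1 (25.1 CPM) and Ifit3 (3.44 CPM).

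A minority of cells carried several of the transcripts at the same time. Cells were called co-detecting where they had a UMI of at least 3 of Ifit1, Ifit3, Rsad2, Usp18 and Isg15. They were 301 of 6110 CD25WT cells, or 4.93% (4.40 to 5.50, Clopper-Pearson), and 293 of 6952 CD25KO cells, or 4.21% (3.75 to 4.71). None of the 5 was detected in 61.6% and 59.6% of cells, and all 5 in 46 and 38 cells. Because the CD25KO cells were shallower, each cell was also thinned to 2000 UMIs, which dropped 90 cells of CD25WT and 375 of CD25KO with fewer. The shares were then 1.89% (1.56 to 2.27) and 1.63% (1.34 to 1.96). Both pairs of intervals overlap, so these shares were not told apart at this depth.

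By state, the share was 5.45% in CD25WT and 6.92% in CD25KO among central-like cells, 7.54% and 5.88% in cluster 10, and 4.89% and 3.67% in cluster 1. It was lowest in follicular regulatory-like cells, at 1.93% and 2.10%, and in recently stimulated-like cells, at 2.91% and 1.49%. Effector-like cells were at 4.17% and 3.93% and cycling-like cells, whose median depth of 17948 and 14965 UMIs was far above that of the others, at 4.55% and 4.27%. Cluster 3 was at 4.44% (2.80 to 6.64) and 7.93% (6.27 to 9.87), which came to 2.45% and 3.02% after thinning. Thinned effector-like cells were at 0.427% and 1.99%, from 1 of 234 and 29 of 1459 cells. The interval of one library overlapped that of the other in all 8 states.

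**Figure D4:**
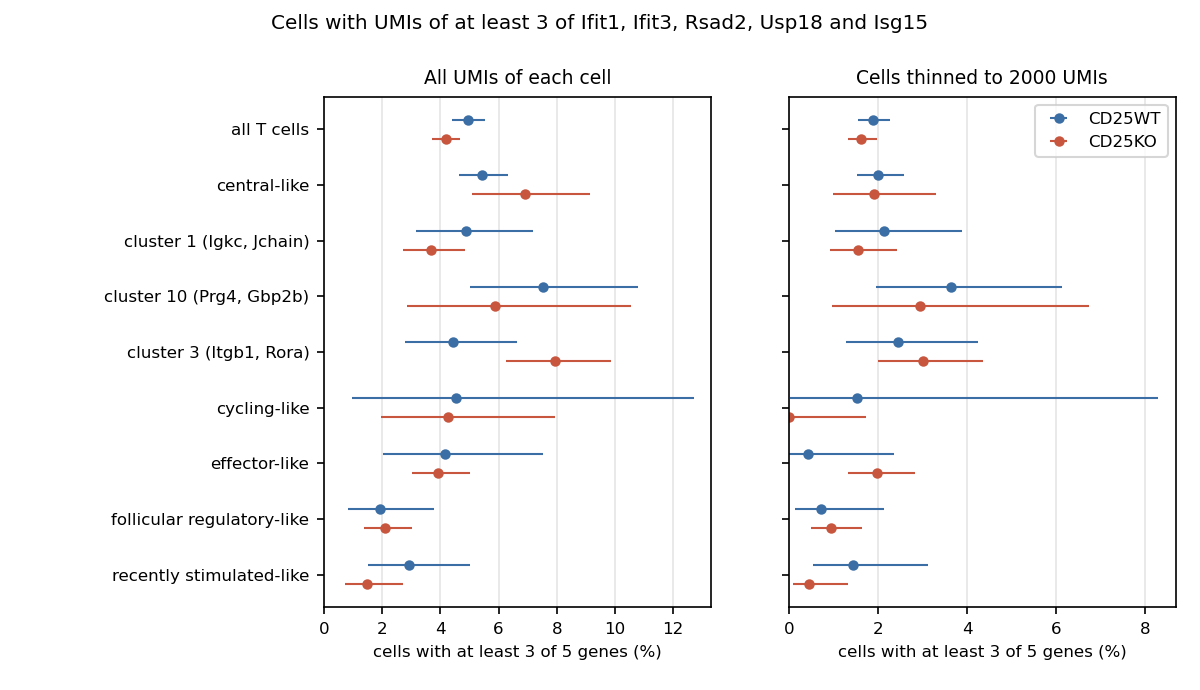
Share of cells, in percent, with UMIs of at least 3 of Ifit1, Ifit3, Rsad2, Usp18 and Isg15 in each Treg state of the CD25WT and CD25KO libraries, for all UMIs and after thinning to 2000 UMIs per cell, with bars for the 95% Clopper-Pearson interval. Follicular regulatory-like and recently stimulated-like cells are low (1.49% to 2.91% unthinned), and the intervals of the libraries overlap within each state.

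Erythroid-like cells were taken as a reference lineage for free RNA, although interferon stimulated genes are not specific to T cells. There were 47 in CD25WT, with a median of 3263 UMIs, and 28 in CD25KO, with 4012. Rsad2 was more frequent in them than in T cells, at 29.8% and 39.3% of cells against 2.65% and 3.20%, and Isg15 was at 36.2% and 42.9% against 23.9% and 30.4%. Ifit1 was at 8.51% and 7.14% against 14% and 11.4%, Usp18 at 8.51% and 10.7% against 11.9% and 7.56%, and Ifit3 at 2.13% and 0% against 6.36% and 5.47%. With 28 cells, a count of 0 allows a share of up to 10.7%, taken as 3 cells, or 12.3% by the Clopper-Pearson limit. For Rsad2 and Isg15, and for Usp18 in CD25KO, the T cell share (median depths 5250 and 4153 UMIs) was thus no higher than in the erythroid-like cells and is not read as expression on its own. The erythroid-like interval of Rsad2 was 17.3% to 44.9% in CD25WT, and that of Usp18 was 2.27% to 28.2% in CD25KO. Rsad2 was at 276 and 287 CPM in the erythroid-like cells, against 10.9 and 13.6 CPM over all kept cells. Isg15 was at 299 and 334 CPM in them, against 89.9 and 133 CPM. Whether the erythroid-like cells made these transcripts themselves was not tested, nor was the part of free RNA in the shares. In each library 3 erythroid-like cells were co-detecting, and with all clusters of other lineages left out the shares of co-detecting cells were 4.94% and 4.18%.

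The other genes of the set, which played no part in choosing these cells, were mostly higher in them. Of the 32 that remain, 26 were at 10 CPM or more outside the co-detecting cells of CD25WT and 27 in CD25KO, so that none of these entered through its level inside. Of them, 22 of 26 were at least 2-fold higher inside in CD25WT and 24 of 27 in CD25KO, 22 of them in both, and none was 2-fold lower. Over all genes with that level outside, 1.15% in CD25WT and 1.16% in CD25KO were as much higher, and 0.656% and 0.832% as much lower. The median log2 ratio of inside over outside was 1.63 in CD25WT and 1.69 in CD25KO for the set, against -0.08 and -0.11 for all genes. The other genes, Ifit3b, Cmpk2, Oasl1, Oasl2, Ifi44 and, in CD25WT, Oas3, were under 10 CPM outside and are given below by their values alone. With the minimum on the mean of inside and outside, the count was 28 of 32 in CD25WT and 29 of 32 in CD25KO, where 1.61% and 1.55% of all genes were 2-fold higher and 0.295% and 0.513% lower, but those genes enter it through their level inside and nothing is read from it. Each of the 26 genes in CD25WT and of the 27 in CD25KO with 10 CPM or more outside had its interval above 0. The share of all genes with such an interval was not computed, so nothing is read from this. Co-detecting cells were deeper, at a median of 6169 against 5176 UMIs in CD25WT and 5410 against 4107 in CD25KO. In cells thinned to 2000 UMIs, 24 of 26 and 25 of 27 were 2-fold higher, with medians of 2.16 and 2.14. A thinned co-detecting cell held a UMI of a median of 12 (quartiles 9 to 15) of these 32 genes in CD25WT and 14 (10.5 to 17) in CD25KO, against 5 (3 to 6) in other cells of both.

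The 5 genes that chose the cells were, as a description only, 3.42 to 5.42 log2 units higher inside in CD25WT and 3.06 to 5.09 in CD25KO. Of the genes not used, Ifit3b was furthest apart. It was at a log2 ratio of 4.98 in CD25WT and 5.22 in CD25KO, and part of the 3′ sequence of Ifit3, which was used, recurs in it. Cmpk2, the nucleotide kinase encoded beside Rsad2, was at 3.52 and 3.39, and Ifi44 at 4.09 and 2.93. The oligoadenylate synthetase genes followed, with Oasl1 at 2.78 and 3.47, Oasl2 at 3.02 and 3.02, and Oas3 at 2.91 and 2.58. Irf7, the factor that amplifies interferon production, was at 2.54 and 2.43. Slfn5 was at 377 CPM inside and 77.4 CPM outside in CD25WT and at 306 and 50.4 CPM in CD25KO, log2 ratios of 2.28 and 2.60.

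Most of the remaining genes lay between 2-fold and 5-fold. Zbp1 was at 212 CPM inside and 68.4 CPM outside in CD25WT and at 283 and 95 CPM in CD25KO, log2 ratios of 1.63 and 1.58. Ifi203 was at 1007 and 466 CPM in CD25WT and 1114 and 455 CPM in CD25KO. Rtp4, at log2 ratios of 1.98 and 2.01, Xaf1, at 1.82 and 1.82, and Herc6, at 1.92 and 1.98, were alike in the libraries. The genes under 2-fold were Slfn2, at 0.38 in both libraries, Irf9, at 0.75 and 0.64, Ifi27l2a, at 0.95 and 0.89, and, in CD25WT alone, Slfn1, at 0.97 against 1.42 in CD25KO. These 4 include the 2 genes with the most UMIs of the set. Ifi27l2a had a UMI in 94.7% of the CD25WT cells outside and 99.0% of those inside, and Slfn2 in 86.5% and 95.7%. Ifit1, by comparison, had one in 9.85% outside and 92% inside, which its use in the rule sets.

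**Figure D5:**
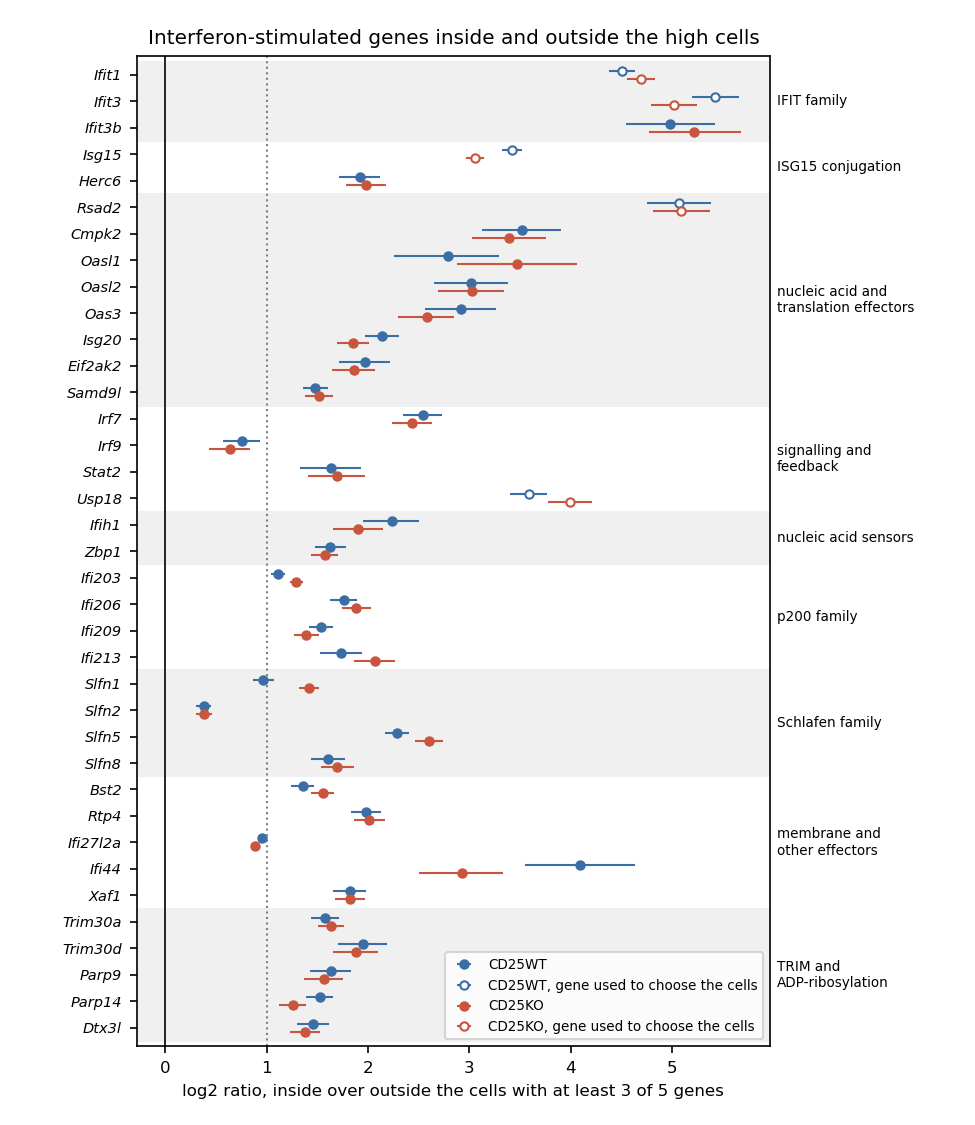
Log2 ratio of the level inside over outside the co-detecting cells for each interferon stimulated gene in the CD25WT and CD25KO libraries, with bars for the 95% exact conditional interval and the 5 genes used to choose the cells marked apart. Of the 26 other genes at 10 CPM or more outside in both libraries, 22 pass 2-fold in both, and Slfn2 (0.38), Irf9 (0.75 and 0.64) and Ifi27l2a (0.95 and 0.89) do not.

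The summed level of the 37 genes, with Ifi27l2a among them, was higher in CD25KO both inside and outside these cells. The summed level was 11777 CPM inside and 4403 CPM outside in CD25WT and 14177 and 5537 CPM in CD25KO. Between the libraries this gave a log2 ratio of 0.27 (0.24 to 0.29) inside and 0.33 (0.32 to 0.34) outside. Much of it rests on Ifi27l2a, at 3210 CPM (CD25WT) and 4995 CPM (CD25KO) inside and at 1661 and 2701 CPM outside. Its own log2 ratios were 0.64 (0.59 to 0.68) inside and 0.70 (0.69 to 0.72) outside. Which of the summed ratios is larger is not read, as Ifi27l2a was not set aside here. Inside, where all 37 genes passed the level minimum, some of them only through the choice of cells, their median was 0.18 against 0.19 for all genes. Outside, it was 0.09 over the 29 that passed the level minimum, against 0.21, so the medians cover different genes. Whether the difference between the libraries itself differs inside and outside could not be tested with 1 library per group. Co-detecting cells carried 2027274 of the CD25WT and 1891926 of the CD25KO UMIs.

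The genes that sense and relay interferon did not share this pattern. None of 7 receptor and kinase genes, 6 other STAT and IRF genes or 7 negative regulators was 2-fold higher inside in both libraries. Of 59 other interferon-induced genes at 10 CPM or more outside, 27 were. Over all genes with that level outside, 1.15% in CD25WT and 1.16% in CD25KO were as much higher. The share of all genes higher in both libraries was not computed. Socs1, an inhibitor of the kinases, had log2 ratios of 0.73 and 0.78. Ifnar1 was at 0.03 and 0.25 and Ifnar2 at 0.15 and 0.01.

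Between the libraries, 1 of 7 receptor and kinase genes was at least 1.5-fold higher in CD25KO and 1 lower. Jak2 was at 34.4 and 61.6 CPM and Ifngr2, a chain of the interferon gamma receptor, at 21.7 and 12.5 CPM. Tyk2 was at 19.3 and 26.9 CPM and Ifnar2 at 54.5 and 68.4 CPM. None of 6 STAT and IRF genes passed 1.5-fold, with Irf2, Irf1 and Stat3 at log2 ratios of 0.42, 0.30 and 0.29. None of 7 negative regulators did, from Irf2bp2 at 0.55 and Ptpn1 at 0.40 to Socs3 at -0.17 and Socs1 at -0.35. The interferon genes themselves were at the edge of detection: 8 of 10 had no UMI in either library, Ifnk had 2 in CD25WT, and Ifng had 114 and 272. A count of 0 allows up to 3 UMIs in a library.

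Of 64 other interferon-induced genes that passed the level minimum, 11 were higher in CD25KO by at least 1.5-fold and 2 lower, where 10.4% of all genes were higher and 1.5% lower by as much. Their median was 0.21, as over all genes. The largest differences were in the membrane proteins Ifitm1, at 0.31 CPM (11 UMIs) and 22.8 CPM, Ifitm2, at 12.9 and 65.9 CPM, and Ifitm3, at 7.20 and 25.9 CPM, and in the chemokine Cxcl10, at 17.4 and 81.8 CPM. The first 3 are among the leading genes of an effector-like cluster with 32 CD25WT and 325 CD25KO cells, and Cxcl10 of a recently stimulated-like cluster with 326 and 608 cells.

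The genes most alike in their pattern were ranked by the log2 ratio of inside over outside, taking the lower of the 2 libraries, over the 6619 genes that passed the level minimum in both. That minimum was on the mean of inside and outside, so genes low outside can enter through their level inside. Among these are Ifit3b, Cmpk2, Oasl1, Oasl2 and Ifi44, and beyond the set Dhx58 (6.64 and 7.71 CPM outside) and A930037H05Rik (4.31 and 4.85 CPM). Of the 50 highest, 27 belong to the set, and 5 of these are the genes of the cell rule, whose place the rule fixes. The count is given as a description and nothing is read from it. The 12 highest outside it were Dhx58 (2.44), a helicase of the MDA5 family, Ifit1bl1, Phf11c, Ifi214, Ifi208 and A930037H05Rik, and 6 genes of red cells, among them Hba-a1, Hba-a2, Hbb-bs, Hbb-bt and Alas2. Haemoglobin transcripts summed to 14600 CPM inside and 3665 CPM outside in CD25WT and to 12495 and 1790 CPM in CD25KO, where 3 erythroid-like cells per library lie inside. Without the clusters of other lineages, a choice made after seeing these values, the sums were 139 and 214 CPM in CD25WT and 99.5 and 114 CPM in CD25KO. The 12 genes were then Dhx58 (2.45), A930037H05Rik (2.37), Ifit1bl1 (2.07), Phf11c (1.94), Ifi214 (1.91), Ifi208 (1.85), Ddx60 (1.83), Pml (1.77), Daxx (1.72), Trafd1 (1.70), Phf11a (1.66) and Gbp6 (1.63). Markers of other cell types summed inside, in CD25WT and CD25KO, to 13.8 and 14.3 CPM for 9 myeloid-like markers, with 4 and 3 at 0, and to 31.1 and 31.7 CPM for 7 plasmacytoid dendritic-like markers, with 3 at 0 in each library. B-like markers were at 50.3 CPM inside and 180 CPM outside in CD25WT, and at 225 and 350 CPM in CD25KO. The 7 natural killer-like markers were higher inside in CD25WT, at 56.7 against 39.3 CPM, and lower in CD25KO, at 121 against 148 CPM, with 1 and 3 at 0 inside. The 2 CD8 T-like markers were at 12.3 and 11.9 CPM in CD25WT and 11.1 and 13.7 CPM in CD25KO. The part of these cell types in the pattern was not tested.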

How the data were processed

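Sorted splenic Tregs were captured on the 10x Chromium system with its 3′ kit, 2 spleens to each library, per the labels' protocols. The deposited files give a UMI count for each gene and barcode. No scaling had been applied to these counts, which Cell Ranger 6.0.0 wrote per the file headers. The build was mm10, per the submitters' processing notes. Which annotation the counts used is not stated in the sources at hand. UMI counts were summed over kept cells and scaled to 1000000 with all genes in the total. Each UMI comes from a transcript 3′ end, so levels are not scaled to gene length. The members and lists were chosen with earlier results of these data known.

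A gene entered a count or median where its mean reached 10 CPM (over the 2 libraries, or over inside and outside). Counts and medians of genes inside against outside used that minimum on the level outside alone, chosen after seeing the data. The ranking of the genes most alike kept it on the mean of inside and outside. Intervals are exact Poisson for sums, exact conditional for ratios and Clopper-Pearson for shares, all at 95%. Every member past 10 CPM is named with values, and from each pathway list up to 4 genes with the largest absolute ratio. A few genes that this rule or the clusters would name are not reported here. Leading genes of clusters, Ifnk and Ifng were named after their values were seen. Scrublet (Scanpy 1.11.5) called 1 and 0 doublets, which was taken as a failure of the caller, so doublets remain. As an alternative, the 328 and 454 cells of highest score were left out. Clusters used 2000 variable genes, 30 components, 15 neighbours and Leiden communities (leidenalg 0.10.2, resolution 1). Clusters were named from markers by a rule set after seeing the data, and those it left unnamed are given by number. The ratio step was tested on simulated counts. Alternatives changed scaling (edgeR 4.0.16 for TMM), depth, level minimum, cell filter, threshold of the cell rule, cell selection and clustering. Gene positions are from GENCODE mouse release M21.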

Additional observations from a re-analysis of the deposited data

How the results depend on the processing

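No paired analysis was possible because each group is 1 library with no replicate number, and for the same reason no replicate could be left out. The median log2 ratio of the set turned negative under the 3 other scalings, to -0.13 (median-of-ratios), -0.14 (TMM) and -0.056 without ribosomal protein and mitochondrial genes in the total, where the median of all genes was also lower by about as much. It was 0.23 with equal weight per cell, 0.13 with a minimum of 5 CPM, 0.041 with 50 CPM, 0.16 with states weighted by their CD25WT shares, 0.10 with CD25WT limited to cells without an Il2ra UMI, 0.12 in cells with a Foxp3 UMI, 0.11 without the highest Scrublet scores and 0.15 in thinned cells, against 0.08. The count of genes at least 1.5-fold higher (2) was 1 under the 3 scalings and with 50 CPM, and 4 without the co-detecting cells. The count at least 1.5-fold lower (0) was 2 under the 3 scalings and without the co-detecting cells, and 3 in cells with a Foxp3 UMI. It was 1 with at least 1000 genes and at most 5% mitochondrial UMIs. Over all genes, 741 were higher and 107 lower of 7129 in the main setting. In the same order, there were 407 and 228 of 7116 (median-of-ratios), 396 and 241 of 7117 (TMM) and 577 and 292 of 8366 (the third scaling). Without the co-detecting cells there were 745 and 106 of 7123, and with a Foxp3 UMI 1265 and 174 of 7152. The stricter cell filter gave 851 and 108 of 7043, and 50 CPM gave 206 and 39 of 2491.

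The summed log2 ratio (0.31) was recomputed with alternatives chosen after seeing the data. It was 0.045 without Ifi27l2a, 0.10 (median-of-ratios), 0.089 (TMM), 0.12 without ribosomal protein and mitochondrial genes in the total and 0.13 with the CD25WT state shares, or 0.095 with those and without Ifi27l2a. It was 0.33 without the co-detecting cells, 0.37 in cells with a Foxp3 UMI, 0.27 with CD25WT limited to cells without an Il2ra UMI and 0.28 in thinned cells. The share of co-detecting cells in CD25WT (4.93%) was 12.6% for at least 2 of the 5 genes, 2.19% for at least 4, 4.24% without an Il2ra UMI, 6.39% with a Foxp3 UMI, 5.61% with the stricter cell filter and 1.89% after thinning. In CD25KO (4.21%) it was 11.5%, 1.61%, 5.22% with the stricter filter and 1.63% after thinning. The count of genes 2-fold higher inside, 28 and 29 of 32 with the minimum on the mean of inside and outside, was 22 and 24 with it on the level outside and stayed between 22 and 30 over the alternatives in both libraries. The summed level was higher in CD25KO in 5 of 5 named states under each clustering tried and without Ifi27l2a. Of the ratios of single genes, 319 stayed within their counting interval and 177 did not. Apart from scaling, the cause of these shifts was not tested. Depth limits the 5 genes under 10 CPM, and doublets, spleens within a pool and animals could not be told apart.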

Other observations

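Values that belong to no comparison above concern the cells of other lineages. The summed level of the 37 genes was 7153 CPM (6715 to 7612) in 27 myeloid-like cells of CD25WT and 7758 CPM (7371 to 8160) in 33 of CD25KO. It was 3129 CPM (2842 to 3438) in 25 B-like cells and 4612 CPM (4257 to 4989) in 27, and 2118 CPM (1957 to 2288) in 47 erythroid-like cells and 2533 CPM (2310 to 2770) in 28. Of this, the 5 genes of the cell rule took 612 and 648 CPM in the erythroid-like cells, against 204 and 232 CPM in all T cells. These cells were few, and the difference between lineages was not tested. When the interferon stimulated genes were kept among the clustering features, a cluster led by Ifit1, Ifit3, Isg15, Rsad2, Usp18, Slfn5 and Ifit3b appeared, with 348 CD25WT and 224 CD25KO cells.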
